A study of Homo sapiens with 6 samples.

Results

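Cytosolic DNAJ co-chaperones were followed in KYSE150 cells with and without a hairpin against the long noncoding RNA AC007128.1. The 10 genes, out of 67140 Ensembl gene identifiers in the count table, were taken by name as HSP40 genes whose proteins act in the cytosol and nucleus: DNAJA1, DNAJA2, DNAJA4, DNAJB1, DNAJB2, DNAJB4, DNAJB6, DNAJC2, DNAJC7 and DNAJC9. All 10 were matched through GENCODE v44. The choice went by name and place in the cell, and no measured value entered the rule. Earlier results of these data were, however, known when the members were chosen.

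KYSE150 is an established human line of esophageal squamous cell carcinoma, grown in RPMI medium with fetal bovine serum. RNA sequencing was done on 3 shCtrl samples, which carried a control hairpin, and on 3 shAC007128.1 samples, which carried the AC007128.1 hairpin. Each arm rests on 1 hairpin, and the study's methods describe stable lines made by lentiviral infection and puromycin selection. No label says that samples of a group came from separate cultures, so p-values measure only the spread between these samples, which may be technical.

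Proteins of the HSP40 family carry a J domain, which docks onto HSP70 and drives it to hydrolyse ATP and clamp onto an unfolded client. Type A and type B members also hold clients themselves and bring them to HSP70, whereas type C members share little beyond the J domain and serve special partners such as the ribosome, HSP90 or histones. Nucleotide exchange factors then reopen HSP70, and in a squamous epithelium this cycle is known for folding newly made proteins and for handling damaged keratins and other aggregating proteins.

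The libraries held 55764405 to 78610457 counts, and each of the 3 shAC007128.1 libraries was smaller than each of the 3 shCtrl libraries. Levels are given as CPM, the count scaled to a common library size with TMM factors, on which 3 counts correspond to between 0.0373 and 0.0546 CPM. AC007128.1 itself was counted 69, 33 and 53 times in the shCtrl samples against 18, 37 and 15 times in the shAC007128.1 samples. The groups thus overlapped in these low counts (log2 fold change -0.77, SE 0.51, edgeR adjusted p = 0.271). By qPCR, the paper reports that the hairpin lowered AC007128.1. Of its exonic bases, 21.5% are also exonic in ICA1-AS1 and 20.7% in ENSG00000272328, both on the same strand and named for this overlap. The defining squamous and epithelial markers KRT5, TP63, CDH1 and EPCAM were present in all samples, whereas SOX2 was low (0.434 CPM in shCtrl and 4.60 CPM in shAC007128.1). All 9 squamous markers together summed to between 1852 and 1890 CPM in shCtrl and between 2647 and 3191 CPM in shAC007128.1, with KRT6A, KRT14 and SOX2 called higher and DSG3 called lower (203 to 95.3 CPM). Markers of other cell types were low: 6 fibroblast genes summed to 15.3 to 16.1 and 20.9 to 23.9 CPM, immune genes to 59.1 to 68.0 and 14.5 to 23.9 CPM, and 3 endothelial genes to 2.12 to 3.11 and 0.302 to 2.02 CPM. Most of the immune sum was CD68 (63.8 and 17.5 CPM), while PTPRC, LYZ, DCN and COL1A2 were at or near 0. Most of the fibroblast sum was COL1A1 (13.9 and 17.5 CPM). LUM was called higher (1.07 to 4.71 CPM) and PDGFRB lower (0.470 to 0.154 CPM). The part of library size and of these markers in the DNAJ results was not tested. In bulk RNA, fewer cells of a type and less RNA per cell cannot be told apart.

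Of the 10 chosen genes 7 were higher with the AC007128.1 hairpin at an adjusted p of 0.05 or less. The same limit was passed as higher by 21.0% of all genes tested. The size of the rise ranged from under 2-fold to over 4-fold, and 3 of the 7 reached 2-fold. DNAJA1 rose 4.57-fold, DNAJB1 3.21-fold and DNAJB4 3.19-fold, while DNAJA2, DNAJC2, DNAJC7 and DNAJC9 rose by 1.40-fold to 1.63-fold. DNAJB2 fell to 0.616 of its control level. DNAJB6 did not pass the test, and DNAJA4 was too low to be tested. A gene was called when it changed at least 2-fold and edgeR's quasi-likelihood test, with Benjamini-Hochberg adjustment over all genes tested, gave p of 0.05 or less.

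Of the 10 members, 9 passed the filter on low counts, each being counted in every sample. By the rule above 3 of these 9 were called higher, where 5.57% of all 19254 genes tested were called higher. None (0 of 9) was called lower, where 10.1% of all genes were, and DESeq2 and limma-voom also called 3 higher and 0 lower. At an unadjusted p under 0.05, edgeR had 8 higher and 1 lower, against 24.9% and 24.2% of all genes. Without the limit on fold change, 7 of the 9 passed as higher, against 21.0% of all genes, and 1 passed as lower, against 19.8%. In 7 members every shAC007128.1 sample was above every shCtrl sample, which 27.0% of all genes also showed. In 1 member every shAC007128.1 sample was below, as in 28.2% of all genes. The median log2 fold change of the 9 was 0.61, with a range from -0.70 to 2.19, and that of all genes was -0.02.

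**Figure D1:**
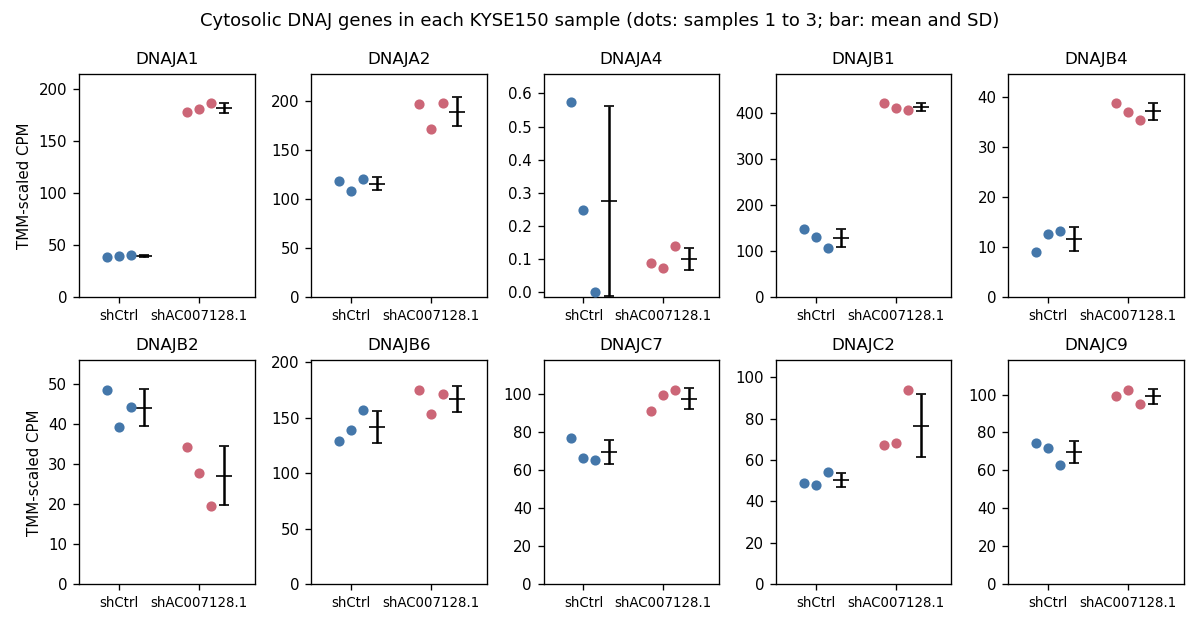
TMM-scaled CPM (y axis) of the 10 DNAJ genes in the 3 shCtrl samples (blue) and the 3 shAC007128.1 samples (red), with the mean and SD in black; each panel has its own scale. DNAJA1 stands at 39.1 to 40.3 CPM in shCtrl and at 178 to 187 CPM in shAC007128.1, whereas the DNAJB6 dots of the groups overlap.

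The sequences before the gene starts are shown for the members that rose most and for those holding heat shock element letters. A heat shock element is known as the DNA motif bound by heat shock factors, built from inverted GAA units. The letters GAANNTTC and TTCNNGAA, both of which read the same on either strand, were searched in the 250 bases before each RefSeq gene start (GRCh38.p14). They were found in 5 of the 16 windows of the 10 members, and in 11.6% of all 35116 windows. Counted by gene, 5 of the 10 members had at least 1 window with them, against 14% of all genes, since several genes have more than 1 start. The 5 were DNAJA1, DNAJA4, DNAJB1, DNAJB4 and DNAJB6. The letters are in capitals below, only stretches outside annotated exons are printed, and a match describes letters and not a bound site.
DNAJB1, chr19:14518408-14518647, minus strand: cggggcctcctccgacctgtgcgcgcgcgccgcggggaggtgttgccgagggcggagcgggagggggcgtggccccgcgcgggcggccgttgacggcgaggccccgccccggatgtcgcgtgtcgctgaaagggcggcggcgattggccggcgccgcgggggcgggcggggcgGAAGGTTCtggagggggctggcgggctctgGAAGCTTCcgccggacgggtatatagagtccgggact
DNAJB4, chr1:78004689-78004934, plus strand: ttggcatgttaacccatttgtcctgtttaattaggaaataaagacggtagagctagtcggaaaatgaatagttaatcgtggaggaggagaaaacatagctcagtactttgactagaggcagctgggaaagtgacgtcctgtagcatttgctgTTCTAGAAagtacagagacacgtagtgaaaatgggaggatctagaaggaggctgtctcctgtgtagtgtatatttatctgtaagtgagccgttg
DNAJB6, chr7:157336774-157336965, plus strand: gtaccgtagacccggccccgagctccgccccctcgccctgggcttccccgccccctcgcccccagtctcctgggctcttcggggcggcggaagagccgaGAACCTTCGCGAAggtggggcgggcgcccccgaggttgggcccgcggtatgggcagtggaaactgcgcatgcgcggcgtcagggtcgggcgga
DNAJA4, chr15:78264394-78264543, plus strand: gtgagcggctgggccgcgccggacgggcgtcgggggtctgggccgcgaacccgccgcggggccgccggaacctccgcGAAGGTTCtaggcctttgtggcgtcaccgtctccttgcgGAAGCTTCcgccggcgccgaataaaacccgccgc
DNAJA1, chr9:33025131-33025272, plus strand: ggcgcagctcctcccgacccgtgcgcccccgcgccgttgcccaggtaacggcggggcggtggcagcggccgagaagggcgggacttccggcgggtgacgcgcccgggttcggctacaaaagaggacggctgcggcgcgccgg

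The DNAJB1 and DNAJA4 stretches carried the same letters in the same order. GAAGGTTC began 77 bases and GAAGCTTC 47 bases before the second listed start of DNAJB1, and the same letters began 91 and 52 bases before the second listed start of DNAJA4. DNAJB4 had TTCTAGAA 98 bases before its second listed start. In DNAJB6, GAACCTTC and TTCGCGAA overlapped to give 3 units in a row, an arrangement found in 0.441% of all windows. The stretch shown for DNAJA1 held none of the letters, and its match, GAAGATTC, began 198 bases before the start inside an exon of the neighbouring gene APTX. The genes with these letters thus included the 3 called members, but also DNAJB6, which did not pass the test, and DNAJA4, which was barely counted. In the windows of 26 starts of the HSP70 cycle genes described further on, the letters were found in 7.

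Type A members are the closest human relatives of bacterial DnaJ and carry a zinc-binding region. DNAJA1 (ENSG00000086061, chr9:33025273-33039907, plus strand) encodes a farnesylated co-chaperone of HSC70, known for folding and for delivering precursors to mitochondria. It measured 39.1, 39.9 and 40.3 CPM in the shCtrl samples and 178, 181 and 187 CPM in the shAC007128.1 samples. The groups were far apart, and the replicates within each were tight (39.7 ± 0.600 against 182 ± 4.50 CPM, mean ± SD, n = 3 each). Its log2 fold change was 2.19 (SE 0.0675, edgeR adjusted p = 1.02e-05), and its p ranked 7 among all 19254 genes tested.

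DNAJA2 (chr16:46955362-46973674, minus strand) encodes the other constitutive type A partner of HSC70, known for refolding and disaggregation. Its level was 119, 108 and 120 CPM in shCtrl and 196, 171 and 198 CPM in shAC007128.1. All 3 shAC007128.1 samples were above the shCtrl samples, by a log2 fold change of 0.71 (SE 0.0848, edgeR adjusted p = 0.000669). DNAJA4 (chr15:78264086-78282196, plus strand), a type A gene known to respond to heat and to sterols, had 42, 20 and 0 counts in shCtrl and 5, 4 and 8 in shAC007128.1. These counts overlapped between the groups, did not pass the filter on low counts, and in shCtrl sample 3 allow a level of up to 0.0442 CPM. A difference in DNAJA4 was not detectable at this depth: without the filter its log2 fold change was -1.49 (SE 1.23, edgeR adjusted p = 0.433).

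Type B members lack the zinc-binding region, and DNAJB1 and DNAJB4 are close relatives within the type. DNAJB1 (ENSG00000132002, chr19:14514769-14560391, minus strand) encodes the classic stress-inducible HSP40, known for working with HSC70 and HSP110 to pull aggregates apart. Its level was 148, 131 and 108 CPM in shCtrl and 422, 411 and 406 CPM in shAC007128.1. The lowest shAC007128.1 sample was well above the highest shCtrl sample, and the spread was larger among the controls (129 ± 19.9 against 413 ± 8.14 CPM, n = 3 each). The log2 fold change was 1.68 (SE 0.115, edgeR adjusted p = 6.93e-05).

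DNAJB4 (ENSG00000162616, chr1:77979175-78017964, plus strand), also known as HLJ1, was counted at a much lower level. It measured 8.94, 12.7 and 13.2 CPM in shCtrl and 38.8, 36.9 and 35.4 CPM in shAC007128.1, with no overlap. The log2 fold change of 1.67 (SE 0.160, edgeR adjusted p = 0.000256) was close to that of DNAJB1. Within each sample, the log2 ratio of DNAJB1 to DNAJB4 counts was 4.05, 3.36 and 3.03 in shCtrl and 3.45, 3.48 and 3.52 in shAC007128.1. The shCtrl ratios enclosed the shAC007128.1 ratios, the means differed by 0.00015, and leaving out each sample in turn moved that difference between -0.22 and 0.28. A difference between the rises of DNAJB1 and DNAJB4 was not detectable with these samples (two-sided exact permutation p = 1).

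DNAJB2 (chr2:219279342-219286898, plus strand) encodes a co-chaperone with ubiquitin-interacting motifs, known for passing clients to the proteasome. It was the member that fell: 48.7, 39.4 and 44.3 CPM in shCtrl against 34.2, 27.7 and 19.6 CPM in shAC007128.1. The groups did not overlap, but shAC007128.1 samples spread widely (27.2 ± 7.34 CPM), and the log2 fold change was -0.70 (SE 0.199, edgeR adjusted p = 0.0267). DNAJB2 did not pass the adjusted p when shCtrl sample 1, shCtrl sample 3 or shAC007128.1 sample 2 was left out (edgeR adjusted p = 0.0872, 0.0716 and 0.0659), with log2 fold changes of -0.63, -0.70 and -0.71. DNAJB6 (chr7:157335381-157417439, plus strand) encodes a strong suppressor of polyglutamine aggregation that also binds keratin. Its level was 129, 139 and 157 CPM in shCtrl and 175, 153 and 172 CPM in shAC007128.1. The highest shCtrl sample lay above the lowest shAC007128.1 sample, and the log2 fold change was 0.23 (SE 0.0961, edgeR adjusted p = 0.0902).

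The type C members rose by less than 2-fold, with log2 fold changes from 0.49 to 0.61. DNAJC7 (chr17:41976421-42021376, minus strand) encodes a protein whose TPR repeats bind HSP70 and HSP90, and it went from 76.6, 66.4 and 65.3 CPM to 91.2, 99.2 and 102 CPM. DNAJC2 (chr7:103312289-103344830, minus strand) encodes the J protein of the ribosome-associated complex, which acts on emerging chains, and it went from 49.1, 47.7 and 54.0 CPM to 67.5, 68.4 and 94.1 CPM. DNAJC9 (chr10:73183362-73247255, minus strand) encodes a nuclear co-chaperone of histones H3 and H4, and it went from 74.3, 71.9 and 63.0 CPM to 99.2, 103 and 95.2 CPM. In each of the 3 genes all shAC007128.1 samples were above all shCtrl samples, with shAC007128.1 sample 3 standing above its group in DNAJC2. Their log2 fold changes were 0.49 (SE 0.0930, edgeR adjusted p = 0.00509), 0.61 (SE 0.143, edgeR adjusted p = 0.0124) and 0.51 (SE 0.0879, edgeR adjusted p = 0.00350). DNAJC2 did not pass the adjusted p without shCtrl sample 2 (log2 fold change 0.57, edgeR adjusted p = 0.0522).

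Reads of some members could be shared with other genes, since the use of strand in counting is not given in the sources used here. Of the exonic bases of DNAJC9, 56.5% are also exonic in FAM149B1 on the opposite strand, whose log2 fold change was -0.22 (edgeR adjusted p = 0.225). For DNAJC2 the shared part was 20.9% with PMPCB (log2 fold change of PMPCB 0.07) and 8.93% with ENSG00000289613, both on the opposite strand. For DNAJB1 the shared part with TECR was 6.41% (TECR 0.14). DNAJC7 shared 3.71% with NKIRAS2, which fell by 1.35 on the log2 scale, and 3.38% with CNP, which was called higher (43.4 to 86.9 CPM). DNAJB4 shared 2.11% with GIPC2 on the same strand, which was nearly uncounted. The table also holds 16 processed pseudogene copies of DNAJA1, DNAJB1 and DNAJB6, all under 1 CPM in every sample. Among these copies DNAJB6P3, named after its value was seen, was called lower (log2 fold change -2.40, edgeR adjusted p = 0.0204). Its counts were low, at 50, 24 and 18 in shCtrl and 6, 4 and 3 in shAC007128.1. The partner genes and pseudogenes were looked up for their overlap or likeness in sequence, not by the rule for named genes.

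Compared per length, the order of the members changed. Levels were expressed as TMM-scaled CPM per kilobase of merged exons. In shCtrl the order was DNAJA2 (23.3 ± 1.29), DNAJC9 (21.7 ± 1.85), DNAJB1 (15.7 ± 2.43), DNAJA1 (14.9 ± 0.225), DNAJB6 (9.45 ± 0.939), DNAJB2 (7.56 ± 0.799), DNAJC2 (7.50 ± 0.491), DNAJC7 (5.36 ± 0.481), DNAJB4 (3.14 ± 0.629) and DNAJA4 (0.0416 ± 0.0437). The ranges of DNAJA2 and DNAJC9, of DNAJB1 and DNAJA1, and of DNAJB2 and DNAJC2 overlapped there. In shAC007128.1 it was DNAJA1 (68.1 ± 1.69), DNAJB1 (50.5 ± 0.994), DNAJA2 (38.1 ± 2.98), DNAJC9 (30.8 ± 1.16), DNAJC2 (11.4 ± 2.25), DNAJB6 (11.1 ± 0.796), DNAJB4 (10.0 ± 0.452), DNAJC7 (7.53 ± 0.442), DNAJB2 (4.65 ± 1.26) and DNAJA4 (0.0151 ± 0.00512). DNAJC2 with DNAJB6, and DNAJB6 with DNAJB4, overlapped in that group, and no other neighbours in either order did. DNAJA1 thus went from rank 4 to rank 1, and DNAJB2 from rank 6 to rank 9. The order depended on the length used: DNAJB1 came first in shAC007128.1 with the longest transcript or the coding length, and DNAJB6 came first in shCtrl with the coding length.

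**Figure D2:**
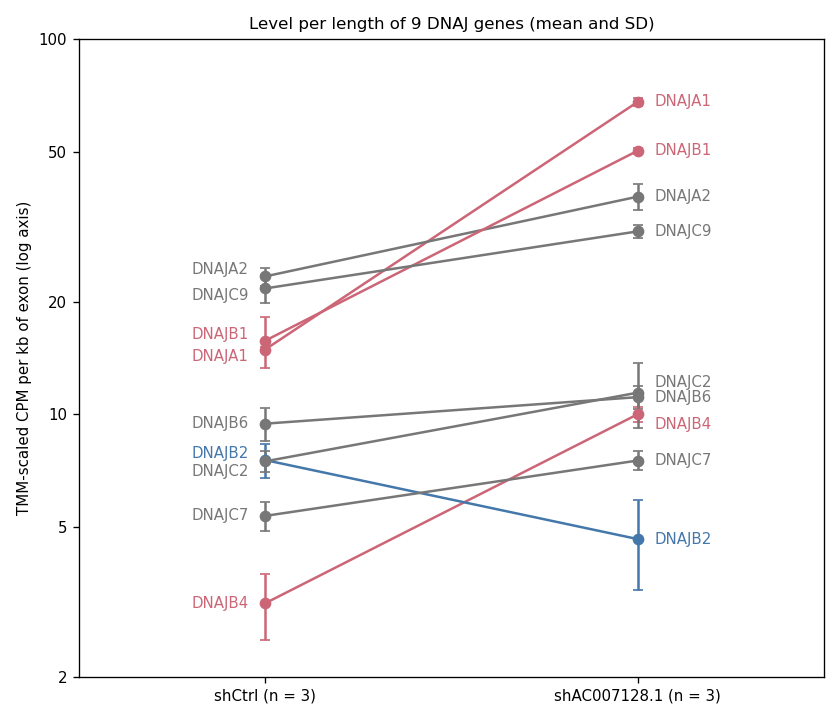
TMM-scaled CPM per kilobase of exon (log y axis, mean and SD) of 9 DNAJ genes in shCtrl (left) and shAC007128.1 (right), n = 3 each, with the 3 genes called higher in red and DNAJB2 in blue. DNAJA1 moves from 14.9 to 68.1 and ends above DNAJA2, while DNAJB2 moves from 7.56 to 4.65; DNAJA4, under 0.05 in both groups, is not drawn.

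Summed over the 10 members, the per-length level was 112, 107 and 107 in shCtrl and 234, 227 and 235 in shAC007128.1. The pool was therefore 2.14 times as large with the hairpin (109 ± 3.27 against 232 ± 4.32), or 2.04 times with the longest transcript and 1.91 times with the coding length. The two-sided exact permutation p was 0.1, the smallest that 3 samples against 3 allow. DNAJA1 made up 13.7% ± 0.602 of the pool in shCtrl and 29.3% ± 0.716 in shAC007128.1, and DNAJB1 14.4% ± 1.89 and 21.7% ± 0.580. The share of DNAJA2 went from 21.5% ± 1.11 to 16.4% ± 0.992, that of DNAJC9 from 19.9% ± 1.40 to 13.3% ± 0.737, and that of DNAJB2 from 6.95% ± 0.569 to 2.01% ± 0.546 (exact permutation p = 0.1 for each). Shares depended on the length used: with the coding length DNAJA1 made up 5.44% and 13.0% of the pool and DNAJB1 20.5% and 34.5%, and both were still higher in shAC007128.1.

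Ratios between members within a sample need no scaling factor and ask whether the members changed unequally. A total of 19 ratios were computed, those with DNAJA4 being left out because of its count of 0. DNAJA1 to DNAJA2 was -1.60, -1.44 and -1.57 in shCtrl and -0.14, 0.07 and -0.08 in shAC007128.1 on the log2 scale, so the type A genes came close to equal counts. Among the 4 type B genes, 5 of 6 ratios did not overlap between the groups. These 6 ratios come from 4 genes and so are not independent of each other. The share of all gene pairs whose ratios separate the groups was not computed. Of single genes tested, 27.0% separated the groups as higher and 28.2% as lower. DNAJB1 over DNAJB2 rose by 2.43 on the log2 scale, from 1.60, 1.73 and 1.28 to 3.62, 3.89 and 4.37, and DNAJB2 over DNAJB4 fell by 2.43. DNAJB1 over DNAJB6 and DNAJB4 over DNAJB6 each rose by 1.46, and DNAJB2 over DNAJB6 fell by 0.97. The 3 ratios among DNAJC2, DNAJC7 and DNAJC9 overlapped and differed by -0.02 to 0.10. Each ratio without overlap had an exact permutation p of 0.1, the smallest that 3 samples against 3 allow, or 0.127 after Benjamini-Hochberg adjustment over the 19 ratios.

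HSPA8, the constitutive HSC70 that these co-chaperones serve, rose more than any tested member. It measured 184, 192 and 181 CPM in shCtrl and 1407, 1394 and 1422 CPM in shAC007128.1, a log2 fold change of 2.92 (SE 0.0554, edgeR adjusted p = 1.05e-06). The count of each tested member relative to HSPA8 was lower in all 3 shAC007128.1 samples than in all 3 shCtrl samples, as it was for 96.2% of all genes tested, so the separation itself is not particular to the members and the ratios serve only to order them. DNAJA1 lost least, by -0.73 on the log2 scale, from -2.23, -2.26 and -2.17 to -2.98, -2.95 and -2.93. DNAJB1 and DNAJB4 both differed by -1.23, DNAJA2 by -2.22, DNAJC2 by -2.33, DNAJC9 by -2.42, DNAJC7 by -2.43 and DNAJB6 by -2.69. DNAJB2 lost most, by -3.66. The exact permutation p was 0.1 for each of the 9 ratios (0.127 adjusted).

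**Figure D3:**
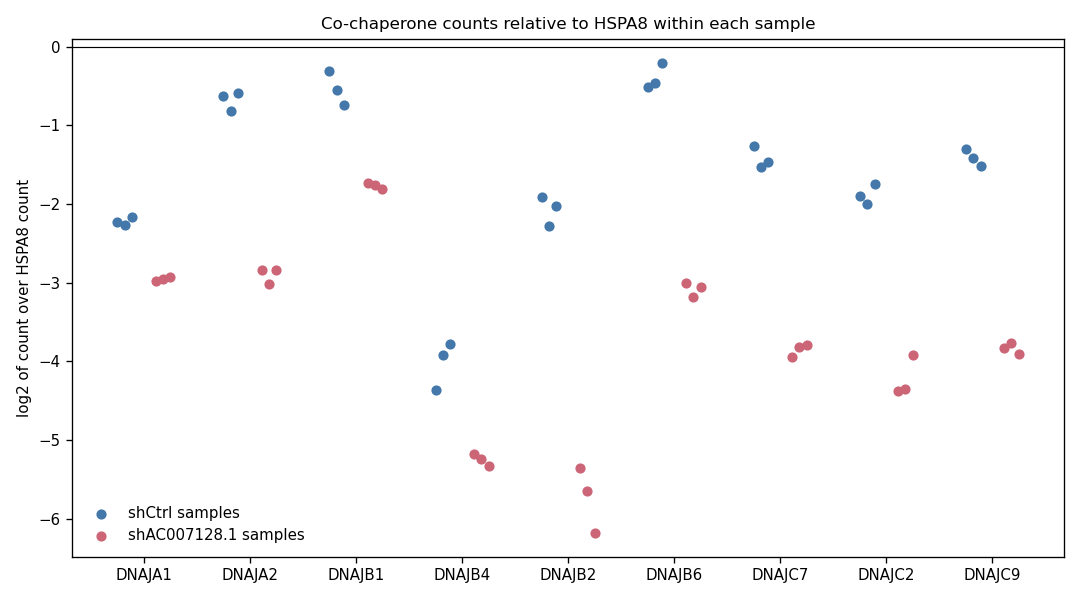
Log2 of each member's count over the HSPA8 count (y axis) within each of the 3 shCtrl samples (blue) and the 3 shAC007128.1 samples (red), for 9 DNAJ genes. Red dots lie below blue dots for every gene, with mean differences of -0.73 for DNAJA1 and -3.66 for DNAJB2, as for 96.2% of all genes tested.

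The other genes of the HSP70 cycle were taken from lists chosen by function. Among all genes tested, 5.57% were called higher and 10.1% lower. Of 7 cytosolic HSP70 genes, 4 were called higher and 1 lower, with a median log2 fold change of 2.30. HSPA1A (3.37) and HSPA1B (3.36), near-identical copies between which reads can be split, rose more than HSPA8, and HSPA14 reached 0.96 (edgeR adjusted p = 0.000419). HSPA2 (2.30) and HSPA6 (-2.15, from 1.19 to 0.266 CPM), named here after their values were seen, completed the called genes, and leaving out 1 sample took the number called higher to between 3 and 4. Of 10 nucleotide exchange factors, 3 were called higher and 0 lower by edgeR, DESeq2 and limma-voom alike, and 7 were higher and 0 lower at edgeR's unadjusted p under 0.05, a limit that 24.9% of all genes pass as higher. Those called were HSPH1, the HSP110 of the disaggregating machine (1.76), the aggregate-handling BAG3 (1.19) and BAG1 (1.22), while HSPA4 rose by 0.83. BAG1 was no longer called without shAC007128.1 sample 1 (log2 fold change 0.9965) or under glmTreat (edgeR adjusted p = 0.0666), which left 2 called. Among 6 adaptors and ligases, 0 were called by edgeR, DESeq2 or limma-voom, but 4 were higher and 1 lower at edgeR's adjusted p alone and at an unadjusted p under 0.05. Of all genes, 21.0% were higher and 19.8% lower at the adjusted p alone. At the unadjusted p these shares were 24.9% and 24.2%. STIP1 and ST13, which link HSP70 to HSP90, rose by 0.75 and 0.43, TTC1 by 0.58 and TOMM34 by 0.48. The ubiquitin ligase STUB1 (-0.74, edgeR adjusted p = 0.00630), named after its value was seen, was lower, as was DNAJB2. Of the exonic bases of STUB1, 42.5% are also exonic in JMJD8 on the opposite strand, named for this overlap. For HSPA1B 36.6% and for HSF4 27.1% are shared with a gene on the same strand. The heat shock factors HSF1 and HSF2 rose by 0.56 and 0.67 and HSF4 fell by 0.55 on the log2 scale (edgeR adjusted p = 0.00336, 0.00792 and 0.0172), and HSF4 did not pass without shCtrl sample 3 (edgeR adjusted p = 0.0667).

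Partners of the type C members were read in the same way. HSPA14, which forms the ribosome-associated complex with DNAJC2, rose by 0.96, beside 0.61 for DNAJC2. BTF3, a subunit of the nascent chain complex, rose by 0.24 (edgeR adjusted p = 0.0294, not passed under several alternatives), and its partner NACA had 0.09 (edgeR adjusted p = 0.419), or -0.048 with upper quartile scaling. Beside the histone co-chaperone DNAJC9, 8 histone chaperone and replication genes were all positive, with a median of 1.17. Of these 8, 5 were called higher: the histone chaperone ASF1B (1.96), the sliding clamp PCNA (1.64), TONSL (1.58), the helicase subunit MCM2 (1.10) and, named after its value was seen, CHAF1B (1.23). The share of all genes called higher was 5.57%. Upper quartile scaling left 4 called, with MCM2 at 0.96, and leaving out 1 sample gave 5 to 6. DNAJC9 at 0.51 was below that median. Of the exonic bases of MCM2, 23.6% are also exonic in ENSG00000285600 on the opposite strand, named for this overlap.

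J-domain genes of other compartments were mostly at negative values. In the endoplasmic reticulum, whose J proteins serve the HSP70 protein BiP, all 7 listed genes had negative values (median -0.58), as had 9881 of all 19254 genes. Of the 7, 5 were lower at the adjusted p alone, where 19.8% of all genes were. DNAJB11 (187 to 90.8 CPM, log2 fold change -1.04) was the 1 called lower, where 10.1% of all genes were. DNAJC3 (-0.99), DNAJB9 (-0.87) and the translocon subunit SEC63 (-0.58) fell by less than 2-fold. The number called lower in this compartment varied from 0 (without shCtrl sample 1) to 3 (with upper quartile scaling), and DNAJB11, DNAJC3 and DNAJB9 lie near the limit on fold change. Of 8 mitochondrial J-domain genes 7 were tested and 0 called by edgeR, DESeq2 or limma-voom (median -0.27), with 1 higher and 3 lower at edgeR's adjusted p alone and 1 and 4 at an unadjusted p under 0.05. Among all genes, the adjusted p alone was passed by 21.0% as higher and 19.8% as lower, and the unadjusted limit by 24.9% and 24.2%. DNAJC4 (-0.86), DNAJC28 (-0.97) and DNAJC30 (-0.36) were lower, and DNAJC11, linked to the complex that shapes the cristae (0.39), was higher, but DNAJC28, DNAJC30 and DNAJC11 no longer passed the adjusted p when some samples were left out. The difference between compartments was described by these counts and was not tested.

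The remaining list held 23 other J-domain genes of the cytosol, the nucleus and membranes facing the cytosol. Of these 20 were tested, with a median of 0.12. The auxilin DNAJC6, which helps strip clathrin coats (1.34), and the endosomal DNAJC13 (1.42) were called higher, and 6 of the 20 were higher at the adjusted p alone, near the 21.0% of all genes. These also took in DNAJC21, a ribosome assembly factor (0.80), and DNAJC5, a synaptic vesicle J protein (0.57). DNAJC12, a partner of aromatic amino acid hydroxylases named after its value was seen, was the 1 called lower (-2.60, from 2.19 to 0.359 CPM), and 2 genes were lower at the adjusted p alone. Of all genes, 5.57% were called higher and 10.1% lower, and 19.8% were lower at the adjusted p alone.

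**Figure D4:**
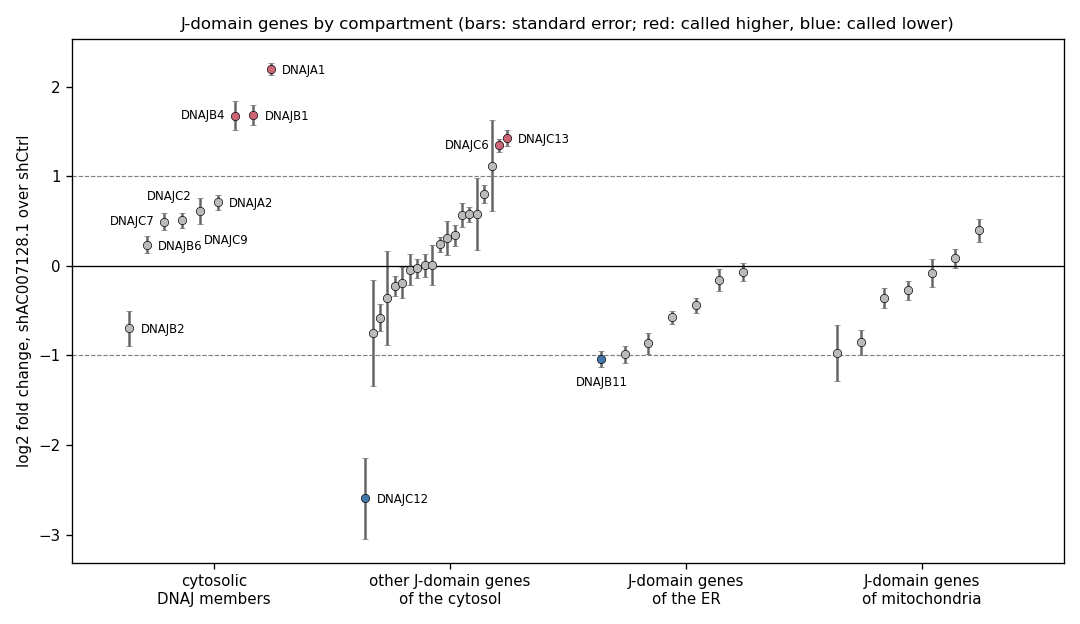
Log2 fold change of shAC007128.1 over shCtrl (y axis, bars are standard errors) for the tested J-domain genes in 4 groups by compartment. Dots are ordered by value within each group, and dashed lines mark 2-fold. The group of other cytosolic genes also holds genes of the nucleus and of membranes facing the cytosol. Red dots were called higher and blue dots lower: the 3 red members lie between 1.67 and 2.19, and all 7 genes of the endoplasmic reticulum lie below 0.

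Likeness of pattern was measured as the root mean square difference of mean-centred log2(CPM + 0.5) over the 6 samples. The genes nearest to DNAJA1 were E2F8 (0.0414), SPC25 (0.0744) and MMP13 (0.0795), and 46 genes lay within 0.2 of it. Nearest to DNAJB1 were E2F2 (0.0848), CA2 (0.0903) and ACOX2 (0.0956), with 111 genes within 0.2. GINS4 was nearest to DNAJB4 (0.109), MORC2 to DNAJA2 (0.0335), the unnamed ENSG00000272667 to DNAJB2 (0.0445) and LSG1 to DNAJB6 (0.0506). CCDC138 was nearest to DNAJC2 (0.0351), WASHC2C to DNAJC7 (0.0309) and AGAP2-AS1 to DNAJC9 (0.0171). Patterns of small change are shared by many genes, since 3940 genes lay within 0.2 of DNAJB6.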

How the data were processed

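RNA was measured in 3 shCtrl and 3 shAC007128.1 samples of KYSE150, grouped by the descriptions in their labels. The labels' treatment field gives the AC007128.1 hairpin for all 6 samples and was not used for grouping. The values are estimated counts per Ensembl gene, deposited by the authors as whole numbers without normalization. Per the study's methods, poly-A paired-end TruSeq libraries were read on a NovaSeq 6000, and filtered reads were mapped to hg38 with TopHat v2.0.9 allowing 2 mismatches. The submitters' processing notes instead list TopHat2 2.0.6 and CASAVA 1.8, with the builds GRCh38 and mm10. The counting program, annotation and use of strand are not given in the sources used here. Low values pile up at multiples of 4. Unmapped sample columns numbered 0.

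Identifiers were matched to GENCODE v44 on hg38 (60357 of 67140, 89.9%). After filterByExpr (19254 kept) and TMM scaling, all genes were fitted with edgeR 4.0.16 in R 4.3.3 (glmQLFit, glmQLFTest). Adjusted p-values are Benjamini-Hochberg over all genes tested, and ± is the SD over 3 samples. Single values per sample were compared by exact permutation. The fit was also run on simulated counts with far fewer changed genes than here. That run cannot show how the scaling behaves under so broad a change. The SE of a log2 fold change is its absolute value divided by the square root of edgeR's quasi-likelihood F. The 3-count floor covers counting error only. Alternatives were DESeq2 1.42.0, limma-voom (limma 3.58.1), other scalings and filters, counts divided by 4, the replicate block, glmTreat and each sample left out.

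Named genes are the 10 members, AC007128.1, HSPA8, HSF1, up to 4 tested genes of smallest p in each other list, and the nearest genes by pattern (3 for DNAJA1 and DNAJB1, 1 for the others). Defining cell type markers are named as checks of the samples. Any other gene is said to be chosen after its value was seen or for its overlap. Members and lists were chosen with earlier results of these data known. Protein features of the members are not reported here, nor is 1 of the marker genes.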

Additional observations from a re-analysis of the deposited data

How the results depend on the processing

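The 3 members called higher and the 0 called lower stayed at those numbers under all 16 alternatives. With a replicate block, 3 members were called higher and 0 lower, 7 and 1 at the adjusted p alone. The same-numbered samples' deviations correlated at 0.045, -0.0498 and -0.0555, so no strong shared effect of the sample number was seen. These values cannot tell whether same-numbered samples were prepared together. Of the members no call changed with the block. At the adjusted p alone, glmTreat against a fold of 1.5 left 3 members higher and 0 lower, since it asks for a larger change. Leaving out each sample gave 6 to 7 higher and 0 to 1 lower, the lower one being DNAJB2. The pool ratio stayed between 1.91 and 2.17. Upper quartile scaling moved the median of all genes by -0.14 (log2), with 770 genes called higher and 2366 lower (24.6% higher) against 1073 and 1945 (35.6%). The members moved with it (DNAJA1 2.05, DNAJB1 1.54, DNAJB4 1.53), and every tested member kept its sign under every scaling. NACA turned to -0.048 under it. Mitochondrial genes called lower went from 0 to at most 1, and DNAJC12 was not tested with at least 10 counts required in every sample.

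Limits: each group has 1 hairpin and 3 samples, so ratios and pools cannot reach an exact p under 0.1. DNAJA4 is at the depth limit. Strand is unknown for DNAJC9.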
